A study of Rattus norvegicus with 15 samples.

Results

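Cd36 encodes the scavenger receptor CD36, also called fatty acid translocase. In this series Cd36 had the most negative difference from solvent of all genes at both flutamide doses, on 1 of its 2 probe sets. It is described here on every array. It was chosen by that difference on these arrays, so its own values and differences are given as a description with no test. It is 1 of 14506 genes tested. The platform annotation gives the symbol Cd36 to 2 of 29214 probe sets, 10940473 and 10853240, and both were followed on all 15 arrays.

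The series measured transcript levels in freshly isolated primary rat hepatocytes, seeded in perfused microfluidic biochips, which are small culture chambers under flow. After 24 h of adhesion in serum-containing medium the cells were perfused at 25 µl/min for a 24 h exposure. All groups shared this culture and the perfusion medium with insulin, transferrin and selenium. The 5 control biochips received DMSO, 6 biochips received 10 µM flutamide and 4 received 100 µM flutamide. Flutamide blocks the androgen receptor without being a steroid, and it can injure the liver in patients. The sources used here do not give strain, sex or age of the rats, or whether different biochips hold cells of different animals. The spread between arrays may therefore be technical, and the p-values below measure only that spread. The titles number the biochips 10 to 16 and 20 to 27, called number run 1 and number run 2 here. Run 2 held 3 DMSO, 3 10 µM and 2 100 µM biochips and run 1 held 2, 3 and 2. The labels do not say what the numbering stands for, and within each run the numbers follow the dose groups.

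CD36 is a glycoprotein that spans the plasma membrane at both ends and belongs to the class B scavenger receptors, with SR-B1 (gene Scarb1) and LIMP-2 (gene Scarb2). It binds long-chain fatty acids, oxidised low-density lipoprotein and thrombospondin-1. In muscle, heart and fat it carries much of the fatty acid uptake. In liver its transcript is usually modest and responds to nuclear receptors, among them PPARγ, PXR and LXR, and to the aryl hydrocarbon receptor, as shown mostly in mice. Macrophages, platelets, fat cells and the endothelium of small vessels also carry it, so RNA from a hepatocyte preparation can hold CD36 transcript from more than 1 cell type.

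RefSeq places rat Cd36 (gene identifier 29184) on the plus strand of chromosome 4 in assembly GRCr8. The 250 bases before its annotated start are shown because the text below turns to the receptors that act on this gene. They lie at chr4:18246332-18246581 and are credited to RefSeq, GRCr8. Capitals mark the TATAA matches, which overlap on opposite strands 173 and 174 bases before the start.
Cd36 upstream region: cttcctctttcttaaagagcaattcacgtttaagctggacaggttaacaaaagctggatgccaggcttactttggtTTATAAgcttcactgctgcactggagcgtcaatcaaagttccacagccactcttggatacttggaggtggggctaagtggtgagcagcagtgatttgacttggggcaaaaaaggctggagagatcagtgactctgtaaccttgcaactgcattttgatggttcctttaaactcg
The direct repeat read by PPAR with RXR (DR1), AGGTCA (the nuclear receptor half-site, contained in DR1), GCGTG (the core read by the aryl hydrocarbon receptor) and TTCNNNGAA (read by STAT5) had 0 matches on either strand of this window. Of 27457 gene promoters of the same length, 0.0546%, 13.7%, 27.2% and 7.52% held these motifs in that order, and 24.1% held TATAA. These are matches of letters in 1 window and say nothing about binding elsewhere at the gene. The same assembly lists a pseudogene, Cd36-ps1, also on chromosome 4, to which 0 probe sets are annotated. Whether the Cd36 probes read RNA from it was not tested.

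On the first probe set, number run 2 showed a wide gap between flutamide and DMSO biochips and number run 1 showed none. In run 2, log2 expression of Cd36 was 8.92, 8.30 and 8.29 in DMSO biochips 20, 21 and 22. It was 7.14, 5.92 and 4.82 in 10 µM biochips 23, 24 and 25, and 5.93 and 4.23 in 100 µM biochips 26 and 27. All 5 flutamide biochips of run 2 lay below all 3 DMSO biochips. Of all genes, 5.64% had this arrangement in run 2. In run 1, Cd36 was 6.59 and 7.14 in DMSO biochips 10 and 11, 6.55, 6.77 and 6.13 in 10 µM biochips 12, 13 and 14, and 7.01 and 7.41 in 100 µM biochips 15 and 16. The doses overlapped in run 1, where the highest value belonged to a 100 µM biochip and the lowest to a 10 µM biochip.

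The second probe set gave smaller differences from DMSO in run 2. In run 2 it read 7.30, 6.89 and 6.52 in DMSO biochips, 6.47, 5.73 and 3.95 in 10 µM biochips, and 4.74 and 4.31 in 100 µM biochips. Flutamide biochips of both doses again lay below all DMSO biochips, 10 µM biochip 23 just under DMSO biochip 22, while the ranges of the flutamide doses overlapped. In run 1 it read 5.27 and 6.10 in DMSO biochips, 5.52, 5.73 and 5.10 in 10 µM biochips, and 5.81 and 6.27 in 100 µM biochips, with the groups overlapping. Across the 15 arrays the probe sets correlated at Pearson's r = 0.945 and Spearman's rho = 0.943, and at r = 0.924 in deviations from the group means. Without biochips 27 and 20, the arrays farthest from the median, r was 0.925. For the 422 other genes with 2 probe sets the median r was 0.623, and 75.8% of them had a lower r than Cd36. Both probe sets shared library and normalization on each array. All values below are of the first probe set, whose mean was the higher, unless the second is named.

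**Figure D1:**
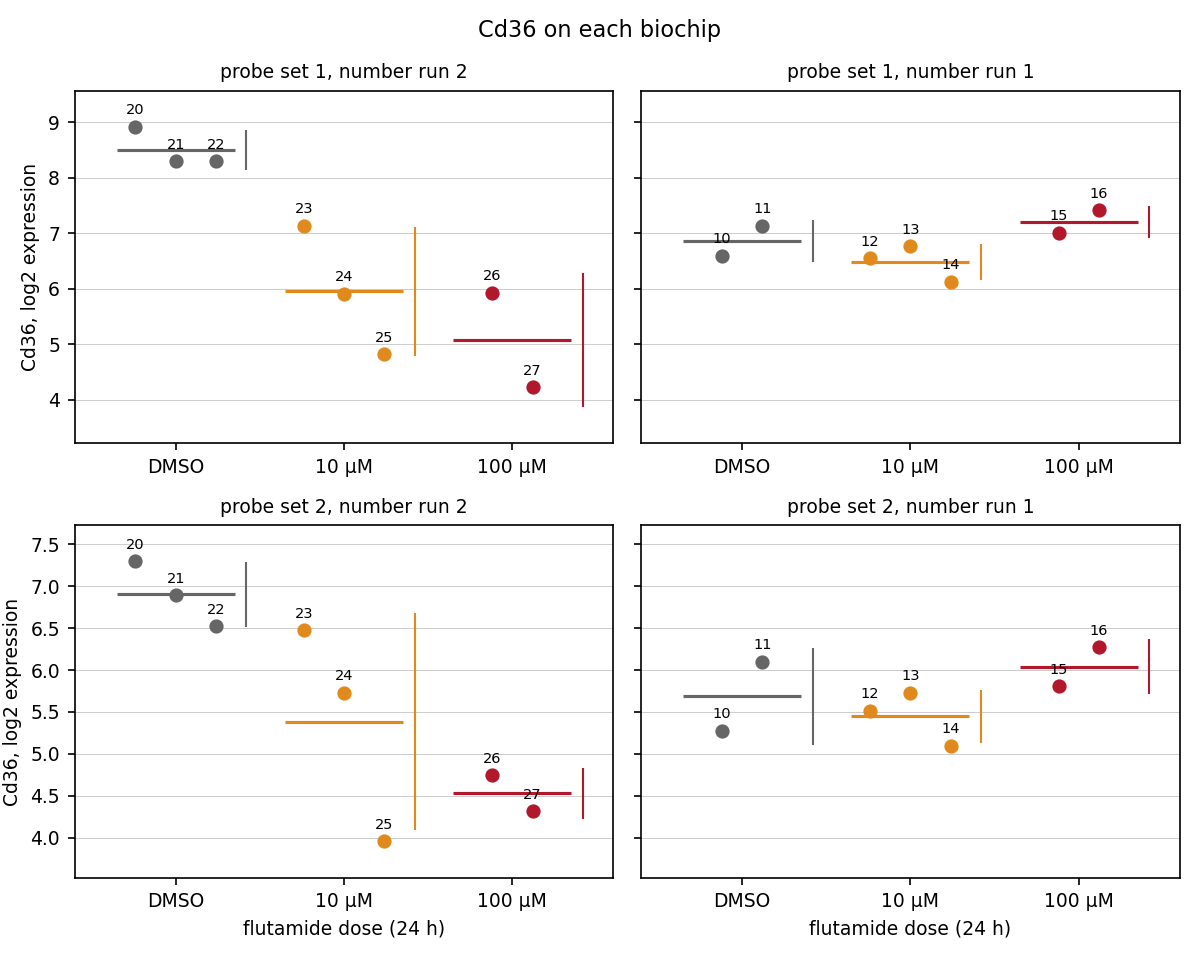
Log2 expression of Cd36 on each biochip, by probe set (rows), number run (columns) and flutamide dose (x axis). Points are biochips with their title numbers, horizontal lines are means and vertical lines are ± 1 SD. In run 2 every flutamide point lies below every DMSO point on both probe sets, and in run 1 the doses overlap.

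Pooled over the runs, Cd36 averaged 7.85 ± 0.95 in DMSO biochips (SD, n = 5), 6.22 ± 0.81 at 10 µM (SD, n = 6) and 6.14 ± 1.42 at 100 µM (SD, n = 4). With the number run as a block in a limma fit to all genes, the log2 difference was -1.65 (SE 0.58) for 10 µM minus DMSO, a 3.15-fold lower level. For 100 µM minus DMSO it was -1.73 (SE 0.64), a 3.32-fold lower level. Both differences use the same DMSO biochips. The doses themselves stood close together, with a log2 difference of -0.08 (SE 0.62) for 100 µM minus 10 µM, well within the spread. The second probe set gave -1.01 (SE 0.47) at 10 µM and -1.14 (SE 0.53) at 100 µM, and the mean of both probe sets gave -1.33 and -1.43.

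Among 14506 genes tested, Cd36 on its first probe set had the most negative log2 difference at each dose. At 10 µM the next genes were Glyatl2 (-1.55) and Pter (-1.46), and at 100 µM they were Sult1b1 (-1.73) and Cyp2b1 (-1.71), named here only for their place beside Cd36 and after their values were seen. The rank depends on the probe set. The second probe set (-1.01 at 10 µM, -1.14 at 100 µM) was less negative than the 8th gene, which stood at -1.24 at each dose. The mean of both probe sets (-1.33 and -1.43) was not the most negative either. Cd36 was also one of the most variable genes. Its residual SD, after dose and run, was 1.08 on the log2 scale against a median of 0.19 over all genes, and only 8 genes had a larger one. Within the 100 µM group alone 6 genes had a larger SD, within DMSO 31 and within 10 µM 206.

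Split by run, the log2 difference at 10 µM was -2.55 (SE 0.52, 5.84-fold lower) in run 2 and -0.38 (SE 0.58) in run 1. At 100 µM it was -3.43 (SE 0.58, 10.7-fold lower) in run 2 and 0.34 (SE 0.64) in run 1. The run 1 differences were both smaller than their SE, which rests on 1 spread estimated over both runs. The SD of flutamide biochips was larger in run 2 than in run 1, so this SE does not describe either run alone. In run 2 the mean was lower at the higher dose, at 8.50 ± 0.36 in DMSO (SD, n = 3), 5.96 ± 1.16 at 10 µM (SD, n = 3) and 5.08 ± 1.20 at 100 µM (SD, n = 2), and the ranges of the flutamide doses overlapped. In run 1 the means were 6.87 ± 0.38 in DMSO (SD, n = 2), 6.48 ± 0.33 at 10 µM (SD, n = 3) and 7.21 ± 0.29 at 100 µM (SD, n = 2).

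The controls differed between runs as well. In DMSO biochips Cd36 was higher in run 2 than in run 1 by a log2 difference of 1.64 (SE 0.58), the 8th most positive run difference of all genes. At 10 µM the difference, run 2 minus run 1, was -0.52 (SE 0.52), and at 100 µM it was -2.13 (SE 0.64). So the run 2 contrast had a DMSO level above, and a 100 µM level below, those of run 1. The change with flutamide differed between the runs by -2.16 (SE 0.78) at 10 µM and -3.77 (SE 0.86) at 100 µM, run 2 minus run 1, and the 100 µM value was the lowest of all genes. What separates the runs cannot be read from the labels.

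Single biochips weighed heavily. Biochip 27, at 4.23 the lowest value of Cd36 on any array, carried part of the 100 µM difference, which was -1.04 without it. Without DMSO biochip 10 the differences were -2.09 at 10 µM and -2.16 at 100 µM. Leaving out 1 biochip at a time kept both differences below 0 in all 15 fits, with 10 µM between -2.09 and -1.36. The 10 µM biochip 23 correlated least with the other arrays and had the lowest quality weight (0.205), and at 7.14 it held the highest Cd36 value among 10 µM biochips. Without it the 10 µM difference was -1.90.

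**Figure D2:**
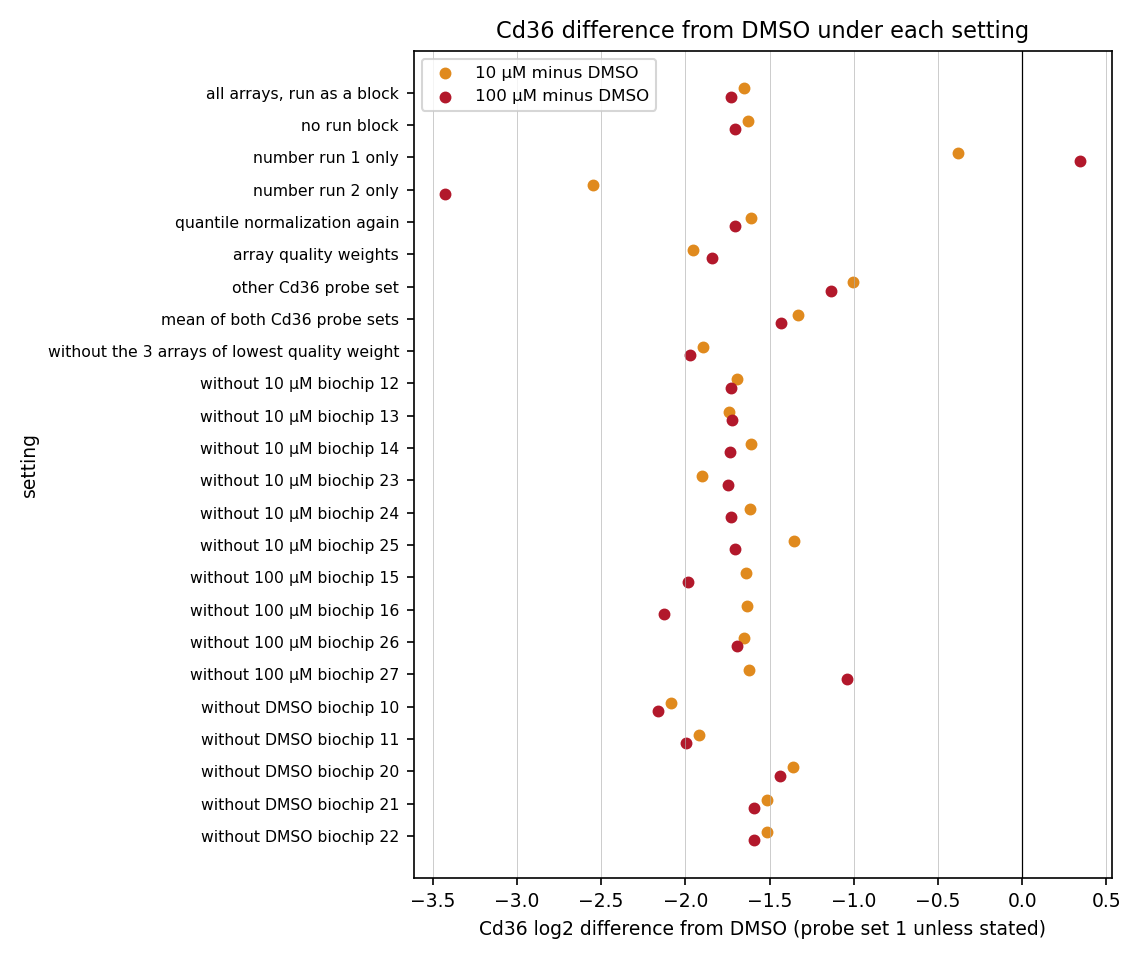
Log2 difference of Cd36 from DMSO (x axis) at 10 µM and 100 µM under each setting (y axis), 1 point per dose. Run 2 alone gives -2.55 and -3.43, run 1 alone gives -0.38 and 0.34, and leaving out any single biochip keeps both doses below 0.

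The nearest relatives of CD36 had small differences. Scarb1, the receptor for high-density lipoprotein, had log2 differences of 0.06 (SE 0.12, adjusted p = 0.959) at 10 µM and 0.18 (SE 0.13, adjusted p = 0.815) at 100 µM by limma with Benjamini-Hochberg adjustment over all genes. Scarb2, a lysosomal membrane protein, had -0.05 (SE 0.13) and -0.06 (SE 0.14). Across all 14506 genes 0 passed an adjusted p of 0.05 at either dose, with 7.65% at an unadjusted p under 0.05 at 10 µM and 6.85% at 100 µM. Counts below therefore use the unadjusted p and are read against these shares. No gene named below passed the adjusted test at either dose.

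The other genes of fatty acid uptake and binding, taken as a list, lay near the median of all genes. Of 23 measured, 12 were lower and 11 higher than DMSO at 10 µM (50.9% of all genes were lower), with a median log2 difference of -0.01. At 100 µM 10 were lower and 13 higher (44.3% of all genes were lower), with a median of 0.03. At an unadjusted p under 0.05, 1 was lower at each dose, against 3.82% of all genes at 10 µM and 3.42% at 100 µM, and 0 were higher, against 3.83% and 3.43% of all genes. The one at 10 µM was Acsl3, a long-chain acyl-CoA synthetase, at -0.47 (SE 0.19). The one at 100 µM was Slc27a2, the very long-chain acyl-CoA synthetase and fatty acid transport protein FATP2, at -0.87 (SE 0.24, adjusted p = 0.623). Fabp1, the fatty acid binding protein of the liver cell, had 0.53 (SE 0.48) and 0.08 (SE 0.54) at 10 and 100 µM. Slc27a5, the bile acid and fatty acid transport protein FATP5, had -0.01 and -0.12.

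Among the uptake genes with an SD of at least 0.4 on the log2 scale over the arrays, Slc27a2 had the highest correlation with Cd36. In run 2 its log2 expression was 10.13, 9.99 and 9.86 in DMSO biochips, 10.27, 9.18 and 8.93 in 10 µM biochips, and 8.65 and 8.69 in 100 µM biochips. The 100 µM biochips lay below the rest, and 10 µM biochip 23 lay above the DMSO biochips. In run 1 Slc27a2 ran from 9.08 to 9.58 over all 7 biochips. Its correlation with Cd36 was r = 0.785 over 15 arrays (0.668 without biochips 27 and 20), given as a description of arrays that share dose and run.

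Enzymes of fatty acid oxidation and other PPARα targets lay lower more often. PPARα is the nuclear receptor that turns on fat burning in the fasted liver, and mouse Cd36 is among the genes its ligands raise there. Of 31 measured, 24 were lower and 7 higher at 10 µM, and 26 were lower and 5 higher at 100 µM. At an unadjusted p under 0.05, 9 were lower at 10 µM and 11 at 100 µM, and 0 were higher at either dose. The median log2 difference was -0.20 at 10 µM and -0.41 at 100 µM, against medians of -0.00 and 0.02 over all genes. By run the medians were -0.39 in run 2 and -0.06 in run 1 at 10 µM, and -0.62 in run 2 and -0.09 in run 1 at 100 µM. In run 2, 9 of the 31 had all flutamide biochips below all DMSO biochips, and in run 1 2 did, against 5.64% and 3.97% of all genes. The DMSO biochips of run 2 stood higher than those of run 1 for this list too, by a median of 0.59 against -0.01 over all genes.

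Vnn1, a pantetheinase and PPARα target, had log2 differences of -0.96 (SE 0.27, adjusted p = 0.384) at 10 µM and -0.81 (SE 0.30, adjusted p = 0.682) at 100 µM. Its run 2 values were 8.66, 8.90 and 8.28 in DMSO biochips, 6.81, 6.92 and 7.24 in 10 µM biochips, and 7.05 and 6.99 in 100 µM biochips. All flutamide biochips of run 2 lay more than 1 log2 unit below the DMSO biochips in that run. In run 1 Vnn1 ran from 7.12 to 7.71 over all doses. The difference between runs in its 10 µM change was -1.56 (adjusted p = 0.0933 by limma), which did not pass. Hadh and Acaa2, enzymes of mitochondrial β-oxidation, had -0.41 and -0.27 at 10 µM and -0.83 and -0.51 at 100 µM. Cpt1a, the gatekeeper of mitochondrial fatty acid import, had -0.34 (SE 0.23) and -0.41 (SE 0.26), with values of opposite sign in the runs: -0.77 in run 2 and 0.22 in run 1 at 10 µM. Ech1, an auxiliary β-oxidation enzyme, had -0.50 (SE 0.29) and -0.48 (SE 0.32).

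Genes of lipid storage and lipoprotein handling were mixed. In the list of lipid droplets and triglyceride synthesis 16 of 23 were lower at 10 µM and 19 of 23 at 100 µM, with 3 and 5 at an unadjusted p under 0.05, all lower. Mgll, the monoglyceride lipase, had -0.99 (SE 0.23, adjusted p = 0.317) at 10 µM and -0.64 (SE 0.26, adjusted p = 0.698) at 100 µM. By run Mgll had -1.48 in run 2 and -0.34 in run 1 at 10 µM, and -1.13 and 0.01 at 100 µM. Agpat2, an acyltransferase of glycerolipid synthesis, had -0.88 (SE 0.23) and -0.74 (SE 0.25). Apob, the structural protein of very low-density lipoprotein, had -0.56 (SE 0.19) and -0.66 (SE 0.21). The other 2 at 100 µM were Cidec (-0.50) and, named after its value was seen, Mttp (-0.41), which loads lipid onto that protein. Plin2, the droplet coat protein that usually tracks stored fat, had -0.04 at both doses. Among 11 lipases and lipoprotein receptors, 1 was lower and 1 higher at an unadjusted p under 0.05 at each dose. The lower one at both doses was Angptl4, the secreted inhibitor of lipoprotein lipase, at -0.60 (SE 0.17) and -0.52 (SE 0.19). By run Angptl4 had -0.78 in run 2 and -0.33 in run 1 at 10 µM, and -0.91 and -0.04 at 100 µM. The higher one at both doses was Cd68, a scavenger receptor of class D, which is returned to below.

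**Figure D3:**
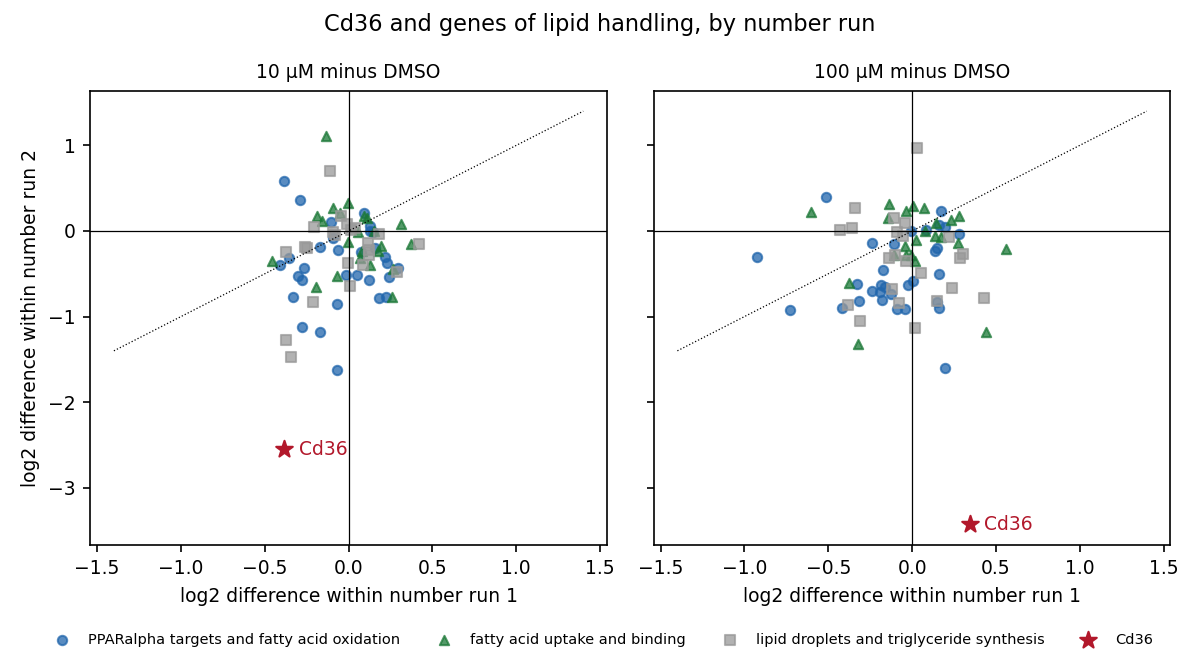
Log2 difference from DMSO within number run 2 (y axis) against that within number run 1 (x axis) at 10 µM (left) and 100 µM (right), 1 point per gene. The dotted line marks equal differences. Cd36 lies at -2.55 and -3.43 in run 2, below every gene of the 3 lists, while the PPARα targets spread mostly below 0 in run 2 and around 0 in run 1.

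The transcripts of the receptors and factors linked to Cd36 control had moderate differences. Of 26 measured, 13 were lower at 10 µM and 15 at 100 µM, with medians of -0.01 and -0.05. At an unadjusted p under 0.05, 4 were lower at each dose and 0 higher. At 10 µM these were Hnf4a (-0.62, SE 0.20), Nr1i2 (-0.33, SE 0.12), Nr1h4 (-0.44, SE 0.18) and Foxo1 (-0.19), the last named after its value was seen. At 100 µM they were Nr1i2 (-0.43, SE 0.13), Ahr (-0.67, SE 0.23), Ppargc1a (-0.88, SE 0.29) and Ppara (-0.63, SE 0.30). Nr1i2 encodes PXR, Hnf4a a master regulator of hepatocyte genes, Nr1h4 the bile acid receptor FXR, and Ppargc1a the coactivator PGC-1α. By run, Hnf4a had -1.14 in run 2 and 0.02 in run 1 at 10 µM, and Nr1i2 had -0.38 and -0.25. Ppara itself had 0.02 (SE 0.27) at 10 µM. At 100 µM Ppara had -1.20 in run 1 and -0.18 in run 2, where Cd36 had 0.34 and -3.43 in that order. The correlation of Ppara with Cd36 over the 15 arrays was r = 0.067. Whether Ppara or another of these receptors has a part in the Cd36 difference was not tested. Pparg had 0.20 (SE 0.12) and 0.09 (SE 0.13) at 10 and 100 µM, and Nr1h3, which encodes LXRα, had -0.21 (SE 0.14) and -0.25 (SE 0.15).

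Targets of those receptors differed by list. Of 20 PXR and CAR targets 15 were lower at 10 µM and 17 at 100 µM, with 4 lower at an unadjusted p under 0.05 at each dose, 1 higher at 10 µM (Cyp3a2) and 0 higher at 100 µM. The lower ones at 10 µM were Gsta3 (-0.74), Aldh1a1 (-0.49), Ugt2b1 (-0.62) and Abcc2 (-0.41), and at 100 µM Gsta3 (-0.66), Aldh1a1 (-0.74), Cyp2b1 and Por (-0.61), with Abcc2 and Por named after their values were seen. These are conjugating and oxidising enzymes, a bile canalicular exporter (Abcc2) and the reductase that supplies cytochromes P450 with electrons (Por). Of 6 aryl hydrocarbon receptor targets 3 were lower and 3 higher at each dose, with 0 at an unadjusted p under 0.05. Of 9 LXR targets 0 reached that at 10 µM and 1 at 100 µM, Abca1, the cholesterol exporter, at -0.48 (SE 0.22). Of 10 PPARγ-responsive fat cell genes 0 reached it at 10 µM and 1 at 100 µM, which was Cidec, a droplet protein, at -0.50 (SE 0.22). Of 12 genes under growth hormone or sex-biased in rat liver, 8 were higher at 10 µM and 5 at 100 µM. At an unadjusted p under 0.05, 0 were lower at either dose and 1 was higher at 100 µM, A1bg (0.22, SE 0.10), a plasma protein gene. At 10 µM 2 were higher at that p, Cyp2c13 (0.92, SE 0.39) and Cyp3a2 (0.85, SE 0.29), both male-predominant cytochromes P450. By run Cyp2c13 had 1.55 in run 2 and 0.14 in run 1 at 10 µM, and Cyp3a2 had 1.37 and 0.20.

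Cyp2b1, the classical CAR target and drug-metabolising cytochrome, came close to Cd36 in size, with -1.24 (SE 0.65, adjusted p = 0.691) at 10 µM and -1.71 (SE 0.72, adjusted p = 0.708) at 100 µM. It also split by run, at -2.09 in run 2 and -0.11 in run 1 at 10 µM. Gsta3, a glutathione transferase, was the only listed gene whose change differed between runs by the test. In run 2 it was 9.03, 9.12 and 9.02 in DMSO biochips, 7.69, 7.80 and 7.72 in 10 µM biochips, and 8.04 and 7.86 in 100 µM biochips. In run 1 it ran from 7.99 to 8.38 over all 7 biochips. The difference in its 10 µM change, run 2 minus run 1, was -1.33 (adjusted p = 0.0116 by limma, n = 15), where 6 genes of 14506 passed (0.0414%). At 100 µM it was -1.06 (adjusted p = 0.139), where 1 gene passed (0.00689%). The count of listed genes passing at 10 µM or 100 µM was 0 without 10 µM biochip 12 or 14 or DMSO biochip 10 or 11, and 5 without 10 µM biochip 25.

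The partners of CD36 at the membrane included 1 gene whose difference was the same in both runs. Tlr6, which in mouse macrophages pairs with TLR4 downstream of CD36, had log2 differences of -0.92 (SE 0.17, adjusted p = 0.279) at 10 µM and -0.87 (SE 0.18, adjusted p = 0.425) at 100 µM. Its values were 6.56, 6.74 and 5.71 in DMSO biochips of run 2, 5.65, 5.48 and 5.13 at 10 µM, and 5.47 and 5.49 at 100 µM. In run 1 Tlr6 was 6.43 and 6.33 in DMSO, 5.55, 5.19 and 5.61 at 10 µM, and 5.24 and 5.72 at 100 µM. Flutamide biochips lay below DMSO biochips in each run, at -0.91 in run 2 and -0.93 in run 1 at 10 µM. Lyn, a Src-family kinase that CD36 recruits, had -0.42 (SE 0.16) and -0.44 (SE 0.17). These were the 2 of 14 partners at an unadjusted p under 0.05, at both doses, and 0 partners were higher at that p.

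The genes most like Cd36 were sought among 1652 genes with an SD of at least 0.4 on the log2 scale over the arrays. Their correlations with Cd36 over 15 arrays ran from -0.84 to 0.87 with a median of 0.09. The highest was Rnase4 (r = 0.872, rho = 0.904, and r = 0.840 without biochips 27 and 20), a secreted ribonuclease. It was followed by Gnai1, an inhibitory G protein subunit (0.846), Ech1 (0.823), Ccl9 (0.814), Lysmd2 (0.811), Selenop, the selenium transport protein of plasma (0.809), Magi3 (0.803) and Cyp2j4 (0.800). The lowest were Ogg1, a DNA repair glycosylase (-0.835), Serpina3c (-0.807), Haus8 (-0.762) and Serpina3l (-0.759). These arrays share dose and run, and any gene that stands out in the same biochips will correlate.

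Over deviations from the group means, which take out dose but not run, the highest correlations were those of Cps1, the first enzyme of the urea cycle (0.830), Ankrd49 (0.795), Rnase4 (0.792), Ocel1 (0.785), Ech1 (0.782), Dab2 (0.774), Slc27a2 (0.773) and Gnai1 (0.771). Rnase4, Ech1 and Gnai1 were the 3 genes in both sets. Rnase4 in run 2 was 8.60, 8.40 and 7.97 in DMSO biochips, 7.65, 6.83 and 6.83 at 10 µM, and 6.78 and 6.87 at 100 µM. All flutamide biochips of run 2 lay below the DMSO biochips for Rnase4. Its log2 differences were -0.75 (SE 0.28) and -0.80 (SE 0.32) at 10 and 100 µM, smaller than those of Cd36.

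**Figure D4:**
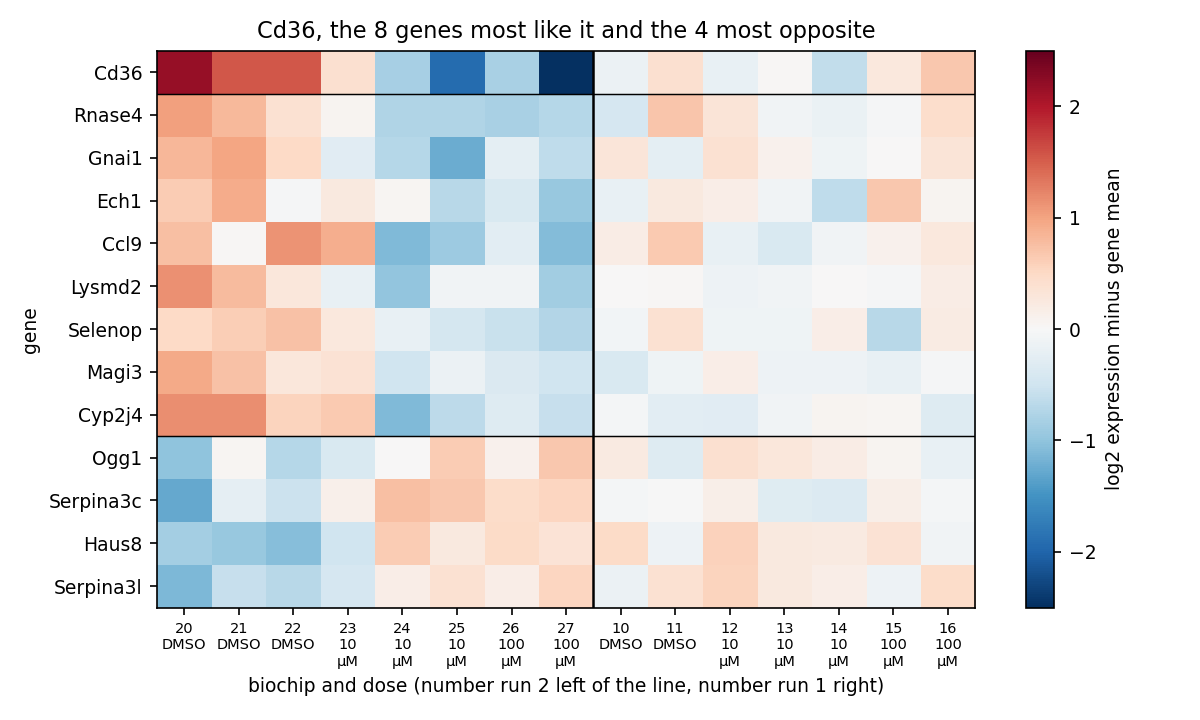
Log2 expression minus the gene's mean (colour) of Cd36, the 8 genes with the highest and the 4 with the lowest correlation with it (rows), on each biochip (columns, number run 2 left of the line and run 1 right). The DMSO biochips 20 to 22 are high and biochips 24 to 27 low for Cd36, and the last 4 rows run mostly the opposite way.

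Markers of the labelled cells were present, with Alb, the albumin gene chosen as the defining hepatocyte marker, at 12.85 in DMSO, 12.95 at 10 µM and 12.93 at 100 µM on the log2 scale. Of 15 hepatocyte markers, 6 were higher and 1 lower at an unadjusted p under 0.05 at 10 µM, and 1 was higher and 4 lower at 100 µM. At 10 µM the higher ones included Apoa2 (0.80, SE 0.23) and Apoc3 (0.78, SE 0.21), apolipoproteins, and the lower one was Hnf4a. By run, Apoa2 had 1.30 in run 2 and 0.17 in run 1 at 10 µM, and Apoc3 had 1.37 and 0.03. In DMSO biochips their differences, run 2 minus run 1, were -0.84 and -0.92. At 100 µM Apoc3 (0.56, SE 0.23) was the higher one, and the lower ones were Tdo2, a tryptophan-degrading enzyme (-1.11, SE 0.46), Asgr1, a subunit of the asialoglycoprotein receptor (-0.65, SE 0.16), Cps1 (-0.70, SE 0.32) and, named after its value was seen, Cyp2e1 (-0.83, SE 0.36).

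Because macrophages also carry CD36, 20 macrophage and Kupffer cell markers were read beside it. Of these, 15 were lower at 10 µM and 17 at 100 µM, with median log2 differences of -0.20 and -0.32, and 1 and 2 were lower at an unadjusted p under 0.05. The 2 at 100 µM were Mrc1, the macrophage mannose receptor, at -1.16 (SE 0.47), and Adgre1, an adhesion receptor used to mark rodent macrophages, at -0.64 (SE 0.28). The 1 at 10 µM was Mrc1, at -0.90 (SE 0.42). By run the medians of the markers were -0.69 in run 2 and 0.05 in run 1 at 100 µM, and -0.04 in run 2 and -0.26 in run 1 at 10 µM. Vsig4 and Cd163, receptors of tissue macrophages named after their values were seen, were the 3rd and 8th most negative of all genes in run 2 at 100 µM, at -2.23 and -1.89, and had -0.04 and -0.11 in run 1. The DMSO biochips 20, 21 and 22 were spread widely, at 7.26, 8.60 and 5.67 for Vsig4 and 7.06, 8.00 and 5.87 for Cd163. The 100 µM biochips 26 and 27 read 5.97 and 3.93 for Vsig4, overlapping DMSO, and 5.39 and 4.78 for Cd163. The 10 µM biochip 23 lay above every DMSO biochip, at 8.95 and 8.51. Cd68, a lysosomal macrophage marker, had log2 differences above 0, of 1.17 (SE 0.38) at 10 µM and 1.18 (SE 0.42) at 100 µM. By run they were 2.11 and 1.80 in run 2, and -0.03 and 0.31 in run 1. In DMSO biochips the Cd68 difference, run 2 minus run 1, was -2.69. Group means of the 20 markers ran from 3.93 (Itgam in DMSO) to 9.77 (Cd14 in DMSO), and no marker was listed at 0. In these bulk RNA samples fewer cells of a type and less RNA per cell cannot be told apart.

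The mean deviation of the 20 markers from their own means, used as a macrophage score, ran from -0.20 to 0.66 in DMSO biochips, from -0.57 to 1.14 at 10 µM and from -0.54 to 0.18 at 100 µM. Across the 15 arrays it correlated with Cd36 at r = 0.554 and rho = 0.626, and 18 of the 20 markers had a positive correlation with Cd36, with a median of 0.438. The median over the 1652 genes with an SD of at least 0.4 was 0.09. The markers were not held to that SD, so these medians are of unlike sets. The highest marker was Mrc1 (0.794), and genes of other lists came as close, among them Gsta3 (0.795), Slc27a2 (0.785) and Cps1 (0.784). The arrays share dose and run, and the correlation of the macrophage score was not set against those of the other lists. It is therefore not shown to be particular to macrophage markers. The score of lipid droplets and triglyceride synthesis in run 2 was 0.18, 0.32 and 0.17 in DMSO biochips. It was 0.11, -0.15 and -0.07 at 10 µM, and 0.00 and -0.21 at 100 µM. The 10 µM biochip 23 had both the highest score (1.14) and the lowest quality weight. Without it, r was 0.695 and rho 0.644 over 14 arrays. In run 2, 0 of the 20 markers had all flutamide biochips below all DMSO biochips. Without biochip 23, 4 did, Mrc1, Adgre1, Aif1 and Marco, against 8.13% of all genes in the same arrays, with Aif1 and Marco named after their values were seen. The part of these cells in the Cd36 difference was not tested. Endothelial scores spanned -0.07 to 0.19 in DMSO, -0.14 to 0.29 at 10 µM and -0.11 to 0.08 at 100 µM, and hepatocyte scores -0.01 to 0.09, -0.11 to 0.49 and -0.27 to 0.03.

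**Figure D5:**
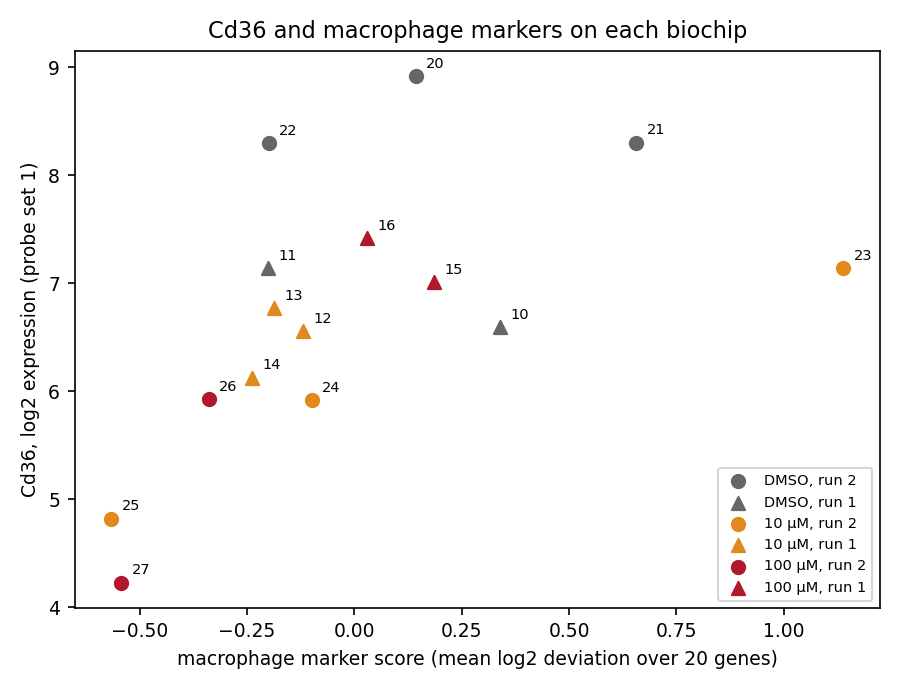
Log2 expression of Cd36 (y axis) against the macrophage marker score (x axis, mean log2 deviation of 20 markers) for each of the 15 biochips, coloured by dose, with circles for number run 2 and triangles for run 1. The run 2 DMSO biochips lie highest on the y axis at scores from -0.20 to 0.66, and 10 µM biochip 23 has the highest score with a Cd36 value of 7.14.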

How the data were processed

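Each biochip was measured on 1 Affymetrix rat gene array. The authors deposited log2 expression values, and the submitters' processing notes name RMA (background correction, quantile normalization and probe summary) and Partek. The sources used here give neither versions nor settings. The values were used as deposited (0 columns of other samples). Array medians were 5.38 to 5.51, pairs of arrays correlated at 0.952 to 0.991, and the lowest quality weights were those of biochips 23, 15 and 24. Precision is limited by the number of arrays.

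Of 29214 probe sets, 15633 had an annotation entry, 323 of them with several genes. Of 15310 with 1 symbol, 15279 matched RefSeq GRCr8. The probe set of highest mean was kept for the 527 genes with several, leaving 14506 genes. These were fitted with limma 3.58.1 (R 4.3.3, lmFit and eBayes) with dose group and number run as terms, 11 residual degrees of freedom and Benjamini-Hochberg adjustment over all genes, with a threshold of 0.05. Values within runs and differences between runs came from a fit of the 6 means of dose by run. The fits were run on simulated data with independent noise per gene and array, to check that planted differences were recovered on average. That simulation held no disturbance shared by a whole array, so it does not show how the fits behave with arrays of low quality.

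Cd36, the 18 gene lists and the rule for named genes were chosen with earlier results of these data known. The rule takes both CD36 relatives, up to 3 members of lowest p per list and dose, 12 fixed genes, and the 8 most and 4 least correlated genes with and without the group means. Genes outside it are named as such or complete a count.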

Additional observations from a re-analysis of the deposited data

Results flagged for a closer look

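For 59 probe sets of genes named in the text, each dose group was searched for a biochip standing far from the others of its group, and 6 of 177 groups had one. Chance alone flags about 1 in 20 groups, and Cd36 had none on either probe set. DMSO biochip 22 was high for Nr1h3, at 6.52 against 6.13 to 6.23 in the other DMSO biochips on the log2 scale. The 100 µM biochip 15 was high for Acsl3, at 8.98 against 8.11 to 8.24. For Hadh, 10 µM biochip 23 was high at 7.76 against 6.69 to 6.92, and DMSO biochip 10 was low at 6.88 against 7.44 to 7.62. The 10 µM biochip 24 was low for Lysmd2, at 5.21 against 6 to 6.19, and 10 µM biochip 23 was low for Haus8, at 7.33 against 8.05 to 8.46. Biochips 23, 15 and 24 were also those with the lowest quality weights.

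The change of Gsta3 at 10 µM differed between the number runs, by a log2 difference of -1.33 for run 2 minus run 1 (adjusted p = 0.0116 by limma over all genes, 15 arrays). Without 10 µM biochip 12 or 14 or DMSO biochip 10 or 11, 0 listed genes passed this test.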

How the results depend on the processing

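No paired analysis was possible because each biochip number belongs to 1 group only, so the groups share no replicate number. With run 1 only, the log2 difference of Cd36 from DMSO was -0.38 at 10 µM, smaller than the pooled value but of the same sign. At 100 µM it was 0.34 with run 1 only, of opposite sign to the pooled value, and -3.43 with run 2 only. The cause was not tested. Leaving out 1 biochip at a time gave -2.09 to -1.36 at 10 µM, -2.16 to -1.04 at 100 µM, -0.49 to 0.58 for 100 µM minus 10 µM, -2.75 to -1.59 for the run difference in the 10 µM change and -4.62 to -2.92 for that at 100 µM. Without the 3 arrays of lowest quality weight, an alternative chosen after seeing the data, the run difference at 10 µM was -3.30. Leaving out biochip 23 for the macrophage markers was also chosen after seeing the data.

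Genes called at 10 µM numbered 0 in the main fit, 7 with run 2 only, 1 after quantile normalization again, 1 with array quality weights and 0 to 1 when a biochip was left out (1 without DMSO biochip 11 or 22). At 100 µM they numbered 0, and 1 with run 2 only. The median of the uptake genes at 10 µM was 0.068 with run 1 only, -0.13 with run 2 only and -0.03 to 0.03 when a biochip was left out. At 100 µM it was -0.065 with run 2 only, -0.055 with dim genes left out and -0.058 to 0.035 when a biochip was left out. The median of the PPARα targets was -0.39 at 10 µM and -0.62 at 100 µM with run 2 only, -0.089 at 100 µM with run 1 only, and -0.33 to -0.14 and -0.50 to -0.26 when a biochip was left out. The count of listed genes whose 10 µM or 100 µM change differed between runs was 1, and 0 to 5 when a biochip was left out.

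With 2 or 3 biochips per dose and run, the values within a run rest on few arrays. Whether a dim gene was above background was not assessed.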
